A study of Mus musculus with 24 samples.

Results

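Resting mouse macrophages kept for 4 h in medium with 5% mouse serum were compared with macrophages kept for the same time in medium without serum. The comparison rests on 6 of the 24 arrays of the study, chosen by their labels: 3 arrays of cells in mouse serum and 3 of cells without serum, from experiments G, H and I, with every gene of the deposited table considered. The study placed macrophages in 4 media (no serum, fetal calf, mouse or human serum, each serum at 5%), without or with 25 ng/ml lipopolysaccharide (LPS), the bacterial cell wall component that activates macrophages. RNA was read on Affymetrix mouse arrays as biotin-labelled cDNA, and neither group of the comparison received LPS.

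All 6 cultures were bone marrow-derived macrophages (BMDM) of C57Bl/6 mice, which are grown from marrow progenitors in culture. They had been plated overnight in Dulbecco's modified Eagle's medium to which glucose, L-glutamine, penicillin and streptomycin were added, a medium for which the labels name no serum, and were then washed 3 times. The medium was replaced with one that held either no serum or mouse serum from a commercial supplier, heated beforehand at 56 °C for 30 min, which inactivates complement. Both groups had thus spent the night in the same medium, and the mouse serum group was given serum at the start of the 4 h. The labels do not say whether experiments G, H and I used separate animals or separate lots of serum, so the p-values measure the spread between these cultures, which may be partly technical.

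Serum is the fluid left when blood clots, and it carries factors that platelets release during clotting, among them platelet-derived growth factor and transforming growth factor beta (TGF-beta), together with lysophosphatidic acid, lipoproteins, steroid hormones and haem-binding proteins. In many cell types serum given after a period without it starts the MAP kinase cascade. Serum response factor (SRF) and AP-1, the dimers of Fos and Jun proteins, are activated and switch on the immediate early genes within minutes to hours. Macrophages are also phagocytes that sense microbial products through Toll-like receptors and answer with chemokines, the small proteins that recruit other white blood cells.

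Levels are given on a log2 scale on which a difference of 1 is a 2-fold change, always in the order of experiments G, H and I. A gene was tested if its level passed 5.08, the median of all values of the table and called the filter level below, on at least 3 of the 24 arrays; 11785 genes did, each read by 1 probe set. A difference is the mean of the 3 arrays in mouse serum minus the mean of the 3 without serum, with its standard error (SE) from limma's moderated linear model, and a gene is called higher or lower where the p-value adjusted by Benjamini-Hochberg over all genes tested is under 0.05.

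The medians of the 6 arrays lay between 5.08 and 5.12, and arrays of one group correlated with each other at 0.988 to 0.992 across genes. Markers of macrophages were high in all 6 cultures: Csf1r, the receptor of macrophage colony-stimulating factor, read 13.66, 13.67 and 13.58 without serum and 13.63, 13.59 and 13.62 in mouse serum, and all 9 macrophage markers that could be read stood above the filter level, with a summed linear level from 43363.7 to 44141.5 without serum and from 46491.5 to 48141.3 in mouse serum. Of these 9, Cd14 was called higher and Mertk and Spi1 lower: Mertk, a receptor for the uptake of dying cells, by -0.66 ± 0.15 (adjusted p = 0.0045), and Spi1, the lineage factor PU.1, by -0.28 ± 0.09 (adjusted p = 0.0485), a call lost under 11 of 15 alternatives. All 7 T and NK cell markers lay below the filter level on every array, as did the granulocyte precursor genes Elane and Mpo and the erythroid genes Hba-a1, Alas2 and Epb42. The endothelial marker Vwf read 9.34, 9.66 and 9.53 without serum and 9.69, 9.22 and 9.38 in mouse serum. The endothelial marker Kdr and the stromal marker Pdgfrb also lay above the filter level on all 6 arrays. The other endothelial and stromal markers read lay below it on all 6. The neutrophil granule genes S100a8 and S100a9 were above it in both groups, and the summed linear level of the 8 neutrophil markers read ran from 1100.8 to 2248.6 without serum and from 1458.4 to 1912.0 in mouse serum. Of the 6 B cell markers read, Cd79b and Ighm stood above it, and their list's summed level ran from 273.0 to 428.9 without serum and from 210.3 to 276.8 in mouse serum. Cd79b itself was called lower (-0.80 ± 0.24, adjusted p = 0.0350), a call lost without the no-serum array of experiment G or H or the mouse serum array of H or I. The part of these markers in the results was not tested. The arrays read whole cultures, so fewer cells of a kind and less RNA per cell cannot be told apart.

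Mouse serum changed the level of 1156 of the 11785 genes tested, 9.81%. Of these, 527 genes (4.47%) were higher in mouse serum and 629 (5.34%) were lower. The counts of gene lists below are to be read against these shares. The median change among called genes was 0.69 for those higher and 0.61 for those lower, and 148 of the higher and 111 of the lower ones changed by more than 1. The groups did not overlap for 522 of the 527 higher and 614 of the 629 lower genes, against 3092 (26.2%) of all genes tested. No overlap means that the 3 arrays in mouse serum lay wholly above or wholly below the 3 without serum. It was read from the values that gave the calls, so it describes the calls and does not test them. The split between the directions depended on scaling: with each array centred on its median, 579 genes were higher and 527 lower, and without the no-serum array of experiment H the numbers were 444 and 411. The median difference over all genes was -0.03.

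**Figure D1:**
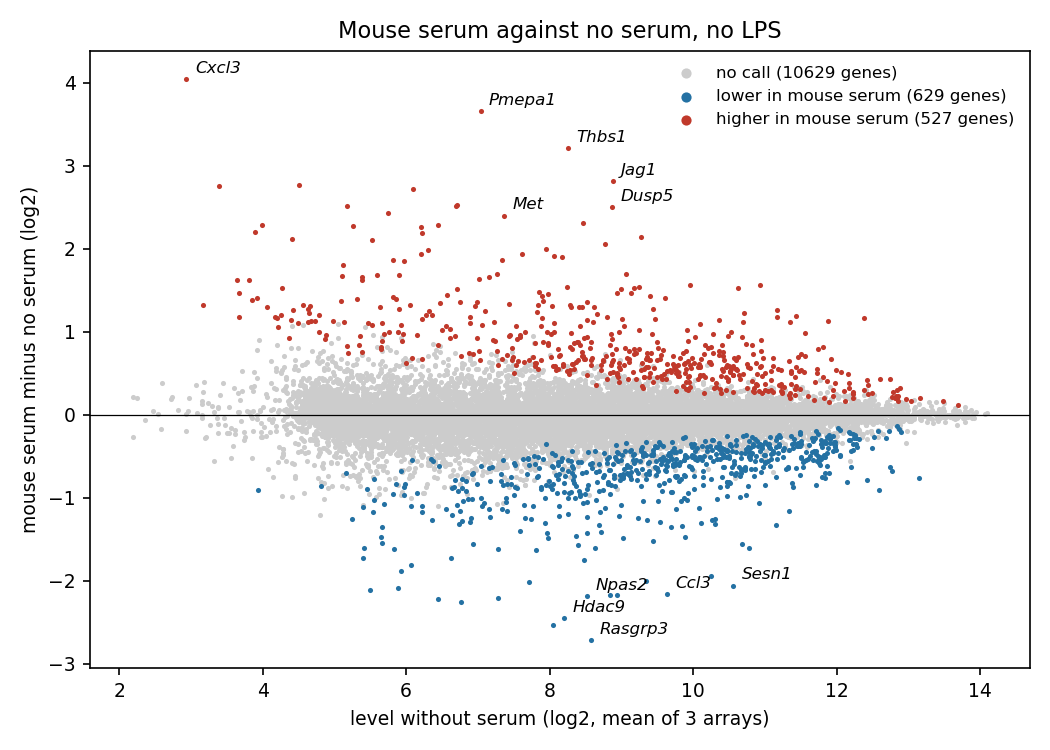
Difference between mouse serum and no serum (mean of 3 arrays minus mean of 3 arrays, log2, vertical axis) against the level without serum (log2, horizontal axis) for each of the 11785 genes tested, with the 527 genes called higher in red, the 629 called lower in blue and the rest in grey. The largest increase, that of Cxcl3, began from a level of 2.94 ± 0.48 (SD), well to the left of the filter level of 5.08, whereas Pmepa1, Thbs1, Jag1 and Dusp5 rose from levels of 7.04 to 8.88.

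The largest increases fell on genes of several kinds. Cxcl3, a chemokine that attracts neutrophils, read 3.30, 3.13 and 2.39 without serum and 6.75, 7.27 and 6.93 in mouse serum. It lay below the filter level on every array without serum and above it on every array in serum, a difference of 4.05 ± 0.29 (adjusted p = 1.06e-09); since the lower mean is that dim, no fold is given. Pmepa1, a membrane protein that TGF-beta induces and that dampens its signal, read 6.96, 7.16 and 6.99 without serum and 10.65, 10.74 and 10.69 in mouse serum. The groups were far apart and varied little within themselves, and Pmepa1 was 12.6-fold higher in mouse serum (3.65 ± 0.13, adjusted p = 4.54e-15). Thbs1, which encodes the matrix protein thrombospondin 1, read 8.14, 8.37 and 8.26 without serum and 11.47, 11.55 and 11.36 in mouse serum, with no overlap and a 9.25-fold rise (3.21 ± 0.16, adjusted p = 3.45e-12). Jag1, a ligand of the Notch receptors, read 8.87, 8.72 and 9.05 without serum and 11.53, 11.80 and 11.74 in mouse serum, a 7.02-fold rise (2.81 ± 0.11, adjusted p = 4.42e-14). The next in order were Olr1, Trem1, Tmeff1, Gja1, Nr4a1, Spsb1, Dusp5, Lrp8, Met, Havcr2 and Nr4a2, with differences from 2.77 down to 2.29. The probe sets of Tmeff1 (2.71 ± 0.29) and of Gja1, a gap junction protein (2.53 ± 0.20), carry a suffix that marks possible cross-hybridisation.

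Among the decreases, Rasgrp3, an exchange factor that activates Ras proteins, read 8.67, 8.46 and 8.60 without serum and 5.71, 5.60 and 6.27 in mouse serum, a 6.56-fold fall (-2.71 ± 0.32, adjusted p = 2.36e-06). Calhm6, a member of a family of large-pore ion channels, read 8.01, 8.07 and 8.06 without serum and 5.60, 5.43 and 5.50 in mouse serum. Its 3 arrays without serum lay close together and above all 3 in serum, and the fall was 5.81-fold (-2.54 ± 0.10, adjusted p = 6.08e-14). Hdac9, a class II histone deacetylase, read 7.97, 8.37 and 8.26 without serum and 5.65, 5.57 and 6.03 in mouse serum, a 5.48-fold fall (-2.45 ± 0.17, adjusted p = 1.06e-09). It was 1 of 11 histone deacetylase genes tested to be called (9.09%), close to the 9.81% of all genes called in either direction; its relatives Hdac4 and Hdac5 differed by 0.32 ± 0.22 and 0.07 ± 0.18. The other large decreases were those of Hpgd, BC147527, Gpr155, Npas2, Frmd4b, Fam214a, Ccl3, Ptger3, Bmp2, Sesn1, Tlr1 and Fgd4, from -2.25 to -2.01. Fgd4, an exchange factor for the small GTPase Cdc42, read 9.27, 9.46 and 9.32 without serum and 7.35, 7.43 and 7.25 in mouse serum. Frmd4b, a scaffold protein, read 8.81, 9.13 and 8.89 without serum and 6.24, 6.93 and 7.13 in mouse serum. The transcript BC147527 read 5.86, 7.21 and 6.25 without serum and 3.27, 5.49 and 3.90 in mouse serum (-2.22 ± 0.40, adjusted p = 4.20e-04). Its arrays of experiment H were the highest of both groups, the groups came close to each other, and its probe set also carries the suffix for possible cross-hybridisation.

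**Figure D2:**
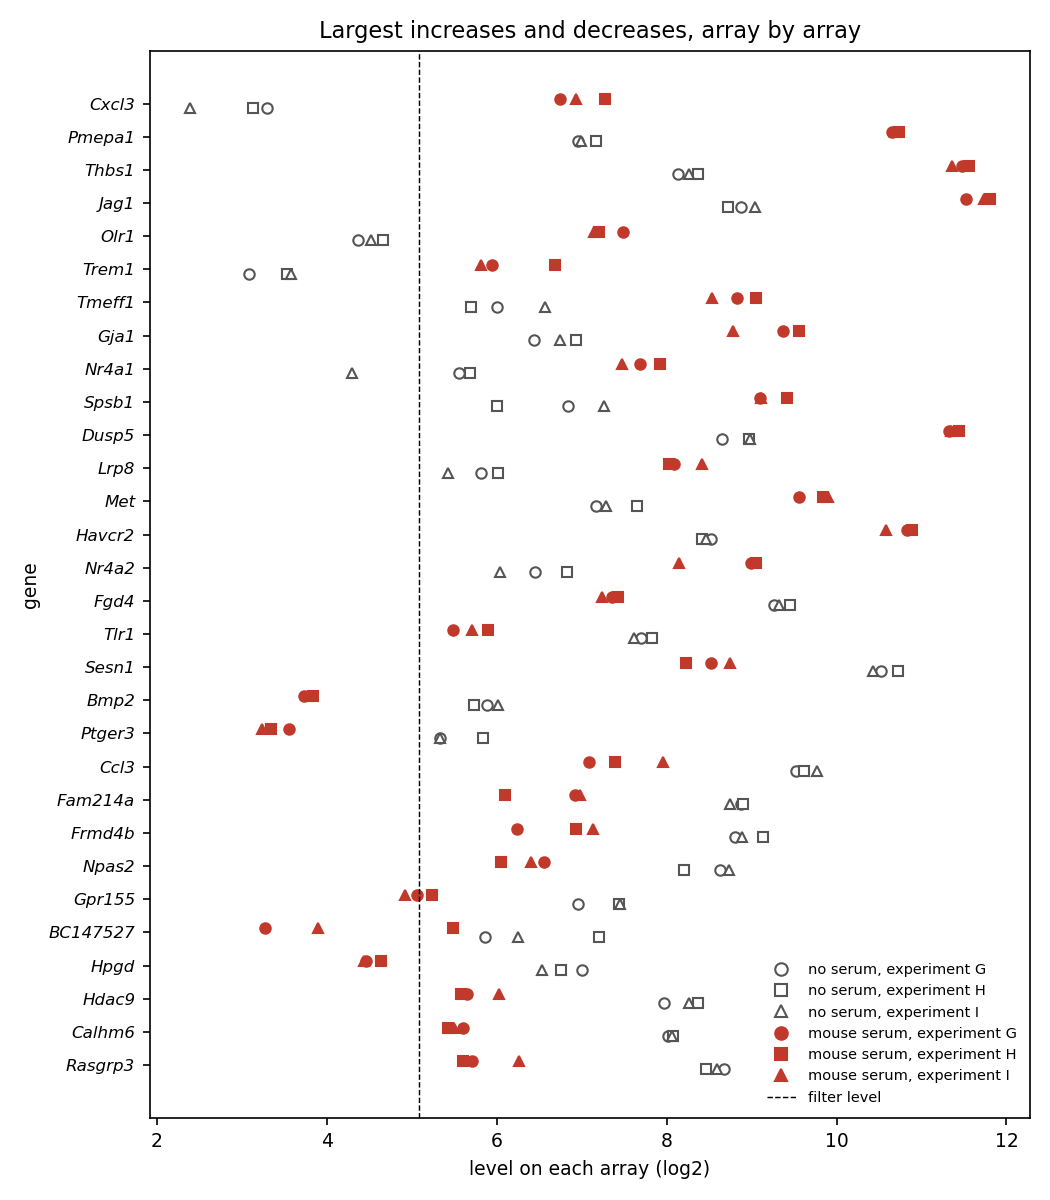
Level on each of the 6 arrays (log2, horizontal axis) for the 15 genes with the largest increase (upper rows) and the 15 with the largest decrease (lower rows); open grey symbols are arrays without serum, filled red symbols arrays in mouse serum, the symbol's shape gives the experiment, and the dashed line is the filter level of 5.08. Open and filled symbols do not overlap in any row, and Cxcl3, Olr1 and Trem1 cross the filter level from left to right while Bmp2, Ptger3 and Hpgd cross it from right to left. The rows were chosen by these same values.

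Chemokine genes moved in both directions. Of 11 CXC chemokine genes tested, 6 were higher and 1 was lower in mouse serum, with a median difference of 0.39 over all 11, against 4.47% higher and 5.34% lower and a median of -0.03 among all genes. Besides Cxcl3, the related neutrophil attractants Cxcl1 and Cxcl2 rose: Cxcl1 read 8.88, 9.61 and 8.94 without serum and 10.62, 10.41 and 10.80 in mouse serum (1.47 ± 0.15, adjusted p = 1.83e-07). The probe set of Cxcl1 carries the suffix for possible cross-hybridisation, and its 2 other kept probe sets were called the same way. Cxcl2 read 9.38, 9.61 and 9.43 without serum and 10.57, 10.73 and 10.56 in mouse serum (1.15 ± 0.11, adjusted p = 7.76e-08). Cxcl14, a chemokine of many epithelia, rose by 1.01 ± 0.14. The single decrease was that of Cxcl10, an interferon-induced attractant of T cells, which read 9.42, 9.49 and 9.40 without serum and 7.69, 8.20 and 7.85 in mouse serum, a 2.87-fold fall (adjusted p = 2.65e-05).

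Ppbp and Pf4 encode chemokines that platelets store in their granules, and both were higher in mouse serum. Ppbp read 5.19, 5.21 and 5.37 without serum and 7.38, 7.38 and 7.83 in mouse serum, a 4.83-fold rise (2.27 ± 0.21, adjusted p = 4.99e-08), and the groups did not overlap. Pf4 rose from 12.37, 12.28 and 12.48 to 12.62, 12.77 and 12.63 (0.30 ± 0.06, adjusted p = 0.0015). Because these transcripts also mark megakaryocytes and platelets, the other markers of that list are given beside them. Gp1bb, the platelet glycoprotein, read 3.87, 4.05 and 3.76 without serum and 3.83, 3.63 and 3.91 in serum, below the filter level on all 6 arrays, and Itga2b read 5.62, 5.51 and 6.00 against 6.05, 5.34 and 5.45. Gp9 read 5.75, 5.64 and 5.98 against 6.02, 6.10 and 6.19. Of the 8 erythroid and megakaryocyte markers read, 4 stood above the filter level in each group, and their summed linear level ran from 5165.7 to 5923.2 without serum and from 6642.9 to 7340.5 in serum. Pf4 and Ppbp are themselves in that sum, and the part of platelets or megakaryocytes in their rise was not tested.

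Among 12 CC chemokine genes tested, 2 rose and 2 fell (16.7% each, against 4.47% higher and 5.34% lower among all genes). Ccl3 and Ccl4, attractants of monocytes and lymphocytes that lie side by side in one cluster, fell: Ccl3 read 9.53, 9.61 and 9.78 without serum and 7.08, 7.39 and 7.96 in mouse serum, a 4.47-fold fall (-2.16 ± 0.18, adjusted p = 1.39e-08). Ccl4 read 7.73, 7.99 and 7.71 without serum and 6.08, 6.38 and 6.05 in mouse serum, a 3.11-fold fall (-1.64 ± 0.12, adjusted p = 1.55e-09). Ccl2, the main attractant of Ccr2-bearing monocytes, rose from 6.36, 6.34 and 6.80 to 7.05, 8.01 and 7.48 (1.02 ± 0.19, adjusted p = 6.09e-04). Ccl7, which uses the same receptor, read 4.29, 4.24 and 4.25 without serum and 5.08, 5.81 and 5.50 in mouse serum; it began below the filter level and differed by 1.20 ± 0.29 (adjusted p = 0.0061).

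The inflammatory cytokines Tnf, Il1b and Il6 were not among the genes called; Il1b was called higher without the mouse serum array of experiment I (0.57, adjusted p = 0.0281). Tnf read 7.55, 7.61 and 7.83 without serum and 7.85, 7.79 and 7.83 in mouse serum (0.17 ± 0.09, adjusted p = 0.3372). Il1b read 7.75, 7.79 and 7.05 without serum and 8.29, 7.90 and 7.59 in mouse serum (0.40 ± 0.16, adjusted p = 0.1302). Il6 read 2.26, 2.69 and 2.14 against 2.33, 2.35 and 2.24, below the filter level on all 6 arrays. Of 15 cytokine and interleukin 1 family genes tested, 3 rose (20%, against 4.47% of all genes) and 2 fell (13.3%, against 5.34%). Both products that block interleukin 1 rose: the receptor antagonist Il1rn read 10.32, 10.13 and 10.05 without serum and 10.94, 11.21 and 10.86 in mouse serum (0.84 ± 0.08, adjusted p = 1.22e-07), and the decoy receptor Il1r2 read 3.77, 3.56 and 3.60 without serum and 4.95, 5.19 and 5.64 in mouse serum (1.62 ± 0.22, adjusted p = 1.35e-05), from below the filter level. Osm, oncostatin M, rose by 1.10 ± 0.16 (adjusted p = 3.34e-05). Csf1, the growth factor on which macrophages live, read 10.10, 9.92 and 9.63 without serum and 8.35, 8.54 and 8.35 in mouse serum, a 2.77-fold fall (-1.47 ± 0.14, adjusted p = 8.88e-08). Il10, the anti-inflammatory cytokine, read 3.86, 4.01 and 3.95 without serum and 3.50, 2.66 and 2.93 in mouse serum; both groups lay below the filter level, and its call (adjusted p = 0.0066) was lost without the mouse serum array of experiment H (adjusted p = 0.0631).

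Immediate early genes, the transcription factors that cells induce first on stimulation, made one of the fullest groups of increases. Of 25 tested, 14 were higher and 3 lower in mouse serum, with a median difference of 0.56. The orphan nuclear receptor Nr4a1 read 5.55, 5.69 and 4.30 without serum and 7.69, 7.93 and 7.47 in mouse serum, a 5.71-fold rise (2.52 ± 0.30, adjusted p = 2.12e-06); the no-serum array of experiment I was the lowest and the only one below the filter level. Its relative Nr4a2 read 6.46, 6.83 and 6.04 without serum and 8.99, 9.05 and 8.15 in mouse serum (2.29 ± 0.42, adjusted p = 4.83e-04), while the third member, Nr4a3, differed by 0.64 ± 0.35 without a call (adjusted p = 0.3313).

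AP-1 genes of the Fos family rose, and none of the Jun genes was called higher. Fosl1 read 6.03, 5.68 and 6.22 without serum and 8.12, 7.87 and 7.49 in mouse serum, a 3.60-fold rise (1.85 ± 0.28, adjusted p = 6.22e-05). Fosl2 read 10.77, 10.71 and 10.65 without serum and 11.85, 12.02 and 11.94 in mouse serum (1.23 ± 0.09, adjusted p = 1.55e-09), and Fos itself 11.29, 11.36 and 11.38 without serum and 12.38, 12.58 and 12.41 in mouse serum (1.11 ± 0.16, adjusted p = 3.52e-05), in each case with no overlap between the groups. Fosb differed by 1.30 ± 0.30, a call that was lost without the no-serum array of experiment H (adjusted p = 0.0607). The Jun genes had small differences: Jun 0.21 ± 0.10 (adjusted p = 0.2327, and 0.0301 with the experiment as a replicate block), Junb 0.07 ± 0.17 (adjusted p = 0.9134) and Jund -0.20 ± 0.06. The call of Jund was lost under 6 of 15 alternatives, among them arrays centred on their medians (adjusted p = 0.1209). Atf3, a bZIP factor that can pair with Jun and represses many inflammatory genes, was lower in serum, at 12.13, 12.24 and 12.24 without serum and 11.53, 11.51 and 11.66 in mouse serum (-0.64 ± 0.06, adjusted p = 2.50e-08).

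Further factors of the same list rose by smaller amounts. Egr1, a zinc finger factor induced through SRF, read 7.72, 7.77 and 8.07 without serum and 9.21, 9.36 and 9.43 in mouse serum, a 2.79-fold rise (1.48 ± 0.17, adjusted p = 9.23e-07). Egr2 rose by 0.52 ± 0.10 and Egr3, at 0.13 ± 0.19, had no call. Srf itself rose from 9.79, 9.98 and 10.16 to 10.40, 10.66 and 10.55 (0.56 ± 0.12, adjusted p = 0.0029). Myc, the driver of cell growth, rose by 0.66 ± 0.16, and Maff and Klf10 rose by 0.88 ± 0.14 and 0.53 ± 0.13.

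Negative regulators of the MAP kinase pathway, which the pathway itself induces, were raised as well: 9 of the 14 tested were higher and 2 lower, with a median difference of 0.54. Dusp5, a nuclear phosphatase that switches off ERK, read 8.65, 8.97 and 8.98 without serum and 11.33, 11.44 and 11.34 in mouse serum. The groups did not overlap, and the rise was 5.66-fold (2.50 ± 0.12, adjusted p = 7.40e-13). Errfi1, an inhibitor of epidermal growth factor receptor kinases, read 7.95, 8.17 and 8.07 without serum and 9.94, 10.02 and 9.98 in mouse serum, a 3.77-fold rise (1.92 ± 0.12, adjusted p = 8.61e-11). Phlda1 rose by 1.64 ± 0.20, and Dusp6, the cytoplasmic ERK phosphatase, and Spry2, a Sprouty inhibitor, rose by 0.84 ± 0.19 and 0.62 ± 0.14. In the other direction, Dusp16, a phosphatase of the stress kinases JNK and p38, fell from 8.78, 8.84 and 8.66 to 7.89, 8.19 and 8.01 (-0.73 ± 0.13, adjusted p = 3.98e-04). Spred1 fell by 0.42.

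To describe the promoters of called genes as a whole, the 250 bases before the start sites of the tested genes were searched on both strands. The motifs were those of SRF, AP-1 and other factors. RefSeq promoter sequences of build GRCm38.p6 were at hand for 9572 of the 11785 genes. The AP-1 site TGANTCA was found for 56 of the 429 called-higher genes with a sequence (13.1%), 27 of the 504 called-lower genes (5.36%) and 5.66% of all 9572. The CArG box, the binding motif of SRF, was found for 17 (3.96%), 8 (1.59%) and 1.36%. The cyclic AMP response element TGACGTCA was found for 3.73%, 2.38% and 2.93%, and the E-box CACGTG for 9.79%, 10.9% and 9.96%. Of the called-higher immediate early factors with a sequence, 0 of 9 held the AP-1 site and 2 of 9 a CArG box. For the called-higher MAP kinase feedback inhibitors these were 0 of 7 and 1 of 7. In the list of SRF and cytoskeletal genes given further below, 2 of 9 called-higher members held a CArG box. Of all members of that list tested and with a sequence, 5 of 16 held one. These are shares of letter matches and not of bound sites.

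Promoters of genes described here are shown, 150 bases up to the start site, 5′ to 3′ on the gene's strand. Here and further below, capitals mark only the motif named for each gene. Matches to other motifs searched stay in small letters. Examples are the E-box CACGTG that begins 126 bases before the start site of Met, and GCGTGGTCA, 111 bases before that of Dusp5. The latter matches the antioxidant response element described further below. They were chosen after their values were seen, to show where the motif stands in a gene that rose. Dusp5 and Srf each hold a pair of CArG boxes, beginning 82 and 72 bases before the start site in Dusp5 (chr19:53528995-53529144, plus strand) and 82 and 62 in Srf (chr17:46556163-46556312, minus strand).
Dusp5: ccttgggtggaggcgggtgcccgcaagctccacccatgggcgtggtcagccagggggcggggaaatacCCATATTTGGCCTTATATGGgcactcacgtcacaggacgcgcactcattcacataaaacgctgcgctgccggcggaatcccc
Srf: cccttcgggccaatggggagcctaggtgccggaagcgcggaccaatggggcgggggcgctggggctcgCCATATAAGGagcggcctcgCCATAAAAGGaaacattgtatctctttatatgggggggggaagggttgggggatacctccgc
The promoter of Errfi1 (chr4:150854920-150855069, plus strand; 1 of 2 start sites listed) holds a cyclic AMP response element that begins 51 bases before the start site.
Errfi1: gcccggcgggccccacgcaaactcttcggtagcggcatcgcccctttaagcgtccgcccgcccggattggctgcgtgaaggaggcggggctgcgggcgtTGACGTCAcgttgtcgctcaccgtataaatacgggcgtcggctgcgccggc
An AP-1 site begins 54 bases before the start site of Met (chr6:17463807-17463956, plus strand), the growth factor receptor described next, and 60 bases before that of Olr1 (chr6:129507166-129507315, minus strand), the receptor for oxidised lipoprotein.
Met: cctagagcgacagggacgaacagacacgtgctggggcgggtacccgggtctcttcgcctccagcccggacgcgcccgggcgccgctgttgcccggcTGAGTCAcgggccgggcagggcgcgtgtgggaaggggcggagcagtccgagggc
Olr1: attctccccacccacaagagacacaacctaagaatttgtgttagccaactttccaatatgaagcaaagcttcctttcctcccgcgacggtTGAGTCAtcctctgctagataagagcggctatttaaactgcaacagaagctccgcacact

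Of 18 growth factor and growth factor receptor genes tested, 4 rose (22.2%, against 4.47% of all genes) and 1 fell (5.56%, against 5.34%). The median difference was 0.14. Met, the receptor of hepatocyte growth factor, read 7.17, 7.65 and 7.29 without serum and 9.56, 9.84 and 9.90 in mouse serum, a 5.27-fold rise with no overlap (2.40 ± 0.14, adjusted p = 3.51e-11). Vegfa, the vascular endothelial growth factor, read 7.99, 7.75 and 8.12 without serum and 10.07, 9.96 and 9.84 in mouse serum, a 4.00-fold rise (2.0 ± 0.17, adjusted p = 1.87e-08). Pdgfa, a chain of platelet-derived growth factor, rose from 8.94, 9.10 and 9.05 to 9.93, 10.26 and 10.09 (1.06 ± 0.13, adjusted p = 3.90e-06). Plaur, the urokinase receptor, rose by 1.11 ± 0.14. Mertk, the receptor with which macrophages take up dying cells, fell from 9.02, 9.15 and 8.94 to 8.37, 8.38 and 8.39 (-0.66 ± 0.15, adjusted p = 0.0045). Csf1r, the receptor of the factor whose gene fell, differed by -0.03 ± 0.04 (adjusted p = 0.8097).

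Genes of TGF-beta and bone morphogenetic protein (BMP) signalling rose in 10 of 19 cases and fell in 2, with a median difference of 0.53. The 10 include the receptor Tgfbr1, whose call was lost without any one of the 6 arrays (adjusted p from 0.0765 to 0.1892). They also include the receptor Acvr1, whose call was lost with the mean of its probe sets (adjusted p = 0.0511). Beside Pmepa1 and Thbs1, 2 genes for inhibitors of the pathway rose: Skil, a Smad co-repressor, read 10.07, 9.97 and 10.23 without serum and 11.05, 11.36 and 11.12 in mouse serum (1.09 ± 0.13, adjusted p = 2.75e-06), and the inhibitory Smad7 read 5.04, 4.93 and 4.96 without serum and 5.88, 6.06 and 6.40 in mouse serum (1.13 ± 0.23, adjusted p = 0.0018), from below the filter level. The inhibitors Bambi, a decoy receptor (0.53 ± 0.24, adjusted p = 0.1944), and Ski, a relative of Skil (0.39 ± 0.16, adjusted p = 0.1357), had no call, although Ski was called with only the 6 arrays compared (0.39, adjusted p = 0.0306) and with the mean of its probe sets (0.38, adjusted p = 0.0206). Smad6 was not tested, as it lay below the filter level. Tgfbi, a matrix protein named for its induction by TGF-beta, rose from 11.09, 11.32 and 11.09 to 12.43, 12.52 and 12.34 (1.26 ± 0.17, adjusted p = 1.50e-05). Inhba, the activin A subunit, rose by 1.30 ± 0.17 (adjusted p = 5.45e-06).

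Of the Id genes, which encode inhibitors of helix-loop-helix factors and are direct BMP targets, Id1 and Id3 rose and Id2 had no call (0.25 ± 0.12, adjusted p = 0.2786); the ligand Bmp2 fell. Id3 read 7.01, 7.17 and 7.27 without serum and 8.55, 8.98 and 8.89 in mouse serum, a 3.16-fold rise (1.66 ± 0.17, adjusted p = 1.73e-07). Id1 read 5.06, 5.23 and 5.72 without serum and 6.13, 6.35 and 6.06 in mouse serum (0.84 ± 0.17, adjusted p = 0.0017). Bmp2 read 5.89, 5.73 and 6.02 without serum and 3.74, 3.84 and 3.79 in mouse serum, falling from above to below the filter level (-2.09 ± 0.24, adjusted p = 1.22e-06). The receptor Tgfbr2 fell by 0.74, from 10.05, 10.11 and 9.88 to 9.21, 9.37 and 9.24 (adjusted p = 0.0029). Among 13 Notch pathway genes, Jag1 and the receptor Notch1 (0.63 ± 0.12, adjusted p = 0.0011) rose and the protease Adam17 fell by 0.36. These are 15.4% higher and 7.69% lower, against 4.47% and 5.34% of all genes. The median over the 13 was 0.18.

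Of 18 genes regulated through SRF and the actin cytoskeleton, 9 were higher and none lower, with a median difference of 0.25. Pdlim7, an adaptor on actin filaments, read 6.01, 6.41 and 6.21 without serum and 8.41, 7.94 and 8.09 in mouse serum, a 3.83-fold rise (1.94 ± 0.21, adjusted p = 5.20e-07). Itga5, which makes the fibronectin receptor with integrin beta 1, rose from 9.23, 8.76 and 8.93 to 9.93, 9.88 and 10.08 (0.99 ± 0.12, adjusted p = 4.36e-06). The focal adhesion proteins Tes and Zyx rose by 0.77 ± 0.11 and 0.69 ± 0.11, and Tagln2 and Tpm4 rose by 0.52 ± 0.09 and 0.49 ± 0.07. Actin beta, Actb, differed by 0.09 ± 0.04 and vinculin, Vcl, by -0.06 ± 0.34, neither with a call.

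In the wider set of 27 matrix protease and adhesion genes, 6 rose and 3 fell, with a median of 0.02. Mmp19, a matrix metalloproteinase, read 8.15, 7.89 and 7.63 without serum and 9.51, 9.35 and 9.11 in mouse serum (1.43 ± 0.27, adjusted p = 8.24e-04), and the proteoglycan Sdc1 read 10.88, 10.62 and 10.59 without serum and 11.87, 11.87 and 11.69 in mouse serum (1.11 ± 0.14, adjusted p = 3.32e-06). Itga4, the integrin chain that binds Vcam1, fell from 10.26, 10.05 and 10.02 to 8.45, 8.94 and 9.04 (-1.30 ± 0.12, adjusted p = 3.46e-08). Icam1, the ligand of leukocyte integrins, fell by 0.72, from 11.51, 11.47 and 11.49 to 10.90, 10.68 and 10.71 (adjusted p = 3.36e-09).

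Of 17 genes of the coagulation and plasminogen systems, 7 rose and none fell, and the median was 0.05. The increases included both membrane partners of the anticoagulant protein C pathway: Procr, the protein C receptor, read 11.14, 11.20 and 11.14 without serum and 12.25, 12.38 and 12.39 in mouse serum, a 2.26-fold rise (1.18 ± 0.07, adjusted p = 1.39e-11). Thbd, thrombomodulin, read 7.14, 7.78 and 7.36 without serum and 8.47, 9.19 and 8.63 in mouse serum (1.34 ± 0.28, adjusted p = 0.0018). Thbs1, Plaur and Pf4, described above, belong to the same list. F3, tissue factor, differed by -0.53 ± 0.22 (adjusted p = 0.1603) and lay below the filter level on all 6 arrays.

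Among targets of NRF2, the transcription factor that answers oxidants and electrophiles, 13 of 22 rose and 1 fell, with a median difference of 0.61. Enzymes and transporters that make glutathione rose together. Slc7a11, the cystine importer, read 7.62, 7.62 and 7.62 without serum and 9.41, 9.87 and 9.39 in mouse serum, a 3.83-fold rise (1.94 ± 0.18, adjusted p = 6.11e-08). Gclc, the catalytic subunit of the enzyme that starts glutathione synthesis, read 9.84, 9.88 and 10.16 without serum and 11.57, 11.38 and 11.62 in mouse serum, a 2.96-fold rise (1.56 ± 0.13, adjusted p = 5.87e-09), and its modifier subunit Gclm read 10.36, 10.30 and 10.40 without serum and 11.55, 11.29 and 11.63 in mouse serum, a 2.20-fold rise (1.14 ± 0.10, adjusted p = 3.82e-08). Gsr, which reduces oxidised glutathione, rose by 0.65 ± 0.06.

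The thiol-repair enzymes Srxn1, sulfiredoxin, and Txnrd1, thioredoxin reductase, read 12.03, 11.92 and 11.69 without serum and 13.11, 12.97 and 12.96 in mouse serum (1.13 ± 0.09) for the former and 11.67, 11.79 and 11.95 without serum and 12.64, 12.58 and 12.66 in mouse serum (0.82 ± 0.07) for the latter. Hmox1, which breaks down haem, rose from 11.71, 11.76 and 11.77 to 12.43, 12.51 and 12.65 (0.79 ± 0.10, adjusted p = 5.08e-06). Blvrb, a biliverdin reductase, rose by 0.62 ± 0.09. Nqo1 and the pentose phosphate enzyme Taldo1 rose by 0.67 ± 0.14 and 0.61 ± 0.08. Gsta3 differed by 1.06 ± 0.28 and Osgin1 by 0.66 ± 0.19, calls that were lost without the no-serum array of experiment G (adjusted p = 0.0642) for the former and without the mouse serum array of experiment G (adjusted p = 0.0698) for the latter, and without 1 and 3 further arrays. Sqstm1 had no call (0.02 ± 0.05).

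The antioxidant response element, searched as TGACNNNGC on both strands, was found in the promoter sequences of 16.6% of called-higher genes, 16.3% of called-lower genes and 14.1% of all. Its letters can overlap an AP-1 site, as they do in the promoter of Met shown above. It begins 134 bases before the start site in Gclm (chr3:122245407-122245556, plus strand) and 92 before it in Txnrd1 (chr10:82859056-82859205, plus strand; 1 of 3 start sites listed), read on the opposite strand in both, and Srxn1 (chr2:152105374-152105523, plus strand) holds a pair of AP-1 sites beginning 102 and 45 bases before its start site.
Gclm: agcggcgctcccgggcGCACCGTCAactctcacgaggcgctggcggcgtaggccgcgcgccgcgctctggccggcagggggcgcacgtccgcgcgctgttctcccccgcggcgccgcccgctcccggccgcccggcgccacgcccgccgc
Txnrd1: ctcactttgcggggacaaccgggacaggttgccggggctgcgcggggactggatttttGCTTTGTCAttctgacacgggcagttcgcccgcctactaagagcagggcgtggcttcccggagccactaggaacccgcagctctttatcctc
Srxn1: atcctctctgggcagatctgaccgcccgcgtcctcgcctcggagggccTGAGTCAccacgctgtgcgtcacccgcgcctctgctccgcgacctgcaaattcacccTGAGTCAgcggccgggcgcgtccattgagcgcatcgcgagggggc

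Genes of iron and other metal transport moved in both directions. Of 18 metal handling genes 2 rose (11.1%, against 4.47% of all genes) and 3 fell (16.7%, against 5.34%). Without the mouse serum array of experiment G 4 rose. Slc40a1, ferroportin, the only known exporter of iron from cells and the single NRF2-list member to fall, read 9.89, 10.13 and 9.54 without serum and 8.56, 8.27 and 8.71 in mouse serum, a 2.53-fold fall (-1.34 ± 0.20, adjusted p = 5.39e-05). Slc11a2, the divalent metal importer DMT1, read 9.94, 9.91 and 9.21 without serum and 8.48, 8.37 and 8.17 in mouse serum, a 2.55-fold fall (-1.35 ± 0.18, adjusted p = 1.14e-05), and the related phagosomal transporter Slc11a1 and the zinc and iron importer Slc39a14 rose by 0.57 ± 0.09 and 0.93 ± 0.14. Tfrc, the transferrin receptor, differed by -0.12 ± 0.10 (adjusted p = 0.5815). The metallothioneins Mt1 and Mt2 differed by 0.28 ± 0.11 and 0.40 ± 0.17, without calls (0.1335 and 0.1550 as adjusted p).

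Of 19 genes known as glucocorticoid targets, 9 rose and none fell, with a median difference of 0.40; Errfi1, Il1r2 and Dusp1 are among them and belong to other lists as well. Fkbp5, a co-chaperone of the glucocorticoid receptor and one of its most responsive targets, read 7.98, 8.57 and 7.98 without serum and 9.90, 10.01 and 10.32 in mouse serum, a 3.72-fold rise (1.90 ± 0.18, adjusted p = 9.31e-08). Per1, a clock gene with glucocorticoid response, read 6.25, 6.36 and 6.81 without serum and 7.36, 7.92 and 8.18 in mouse serum (1.35 ± 0.32, adjusted p = 0.0058). Tgm2, tissue transglutaminase, rose from 12.28, 12.36 and 12.51 to 13.57, 13.55 and 13.54 (1.17 ± 0.06, adjusted p = 1.29e-11). Sgk1 rose by 0.53 ± 0.10. Tsc22d3, known as GILZ, rose by 0.61 ± 0.15 (adjusted p = 0.0099; 0.0502 without the no-serum array of experiment I). Ddit4 differed by 0.80 ± 0.25, and its call (adjusted p = 0.0486) was lost under 8 of 15 alternatives (adjusted p up to 0.188). The experiment as a replicate block was 1 of these (adjusted p = 0.0530). Members without a call included Klf9 (-0.09 ± 0.19), Zbtb16 (-0.21 ± 0.15) and Cebpd (-0.31 ± 0.16). Zbtb16 was called lower with the mean of its probe sets (-0.65, adjusted p = 0.0362). Without the mouse serum array of experiment G, Sult1a1 was called lower (-1.39, adjusted p = 0.0107). The members Mt1 and Mt2 were called higher there (0.39, adjusted p = 0.0412, and 0.59, adjusted p = 0.0287).

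Among 17 circadian clock genes 2 rose and 2 fell (11.8% each, against 4.47% higher and 5.34% lower among all genes). Npas2, a partner of Bmal1 in the clock's activating arm, read 8.63, 8.21 and 8.73 without serum and 6.55, 6.05 and 6.41 in mouse serum, a 4.55-fold fall (-2.19 ± 0.34, adjusted p = 8.08e-05). Dbp, a clock output factor, read 9.25, 8.69 and 9.04 without serum and 7.75, 7.98 and 7.97 in mouse serum (-1.09 ± 0.25, adjusted p = 0.0044). Per1 rose, as given above, and Per2 differed by 1.13 ± 0.29 from below the filter level, a call lost without the no-serum array of experiment G (adjusted p = 0.0739) or without the mouse serum array of H (0.0730) or I (0.0826). With no filter on low values another probe set stood for Per2, with a difference of 0.00, and under each of these settings 1 clock gene was higher. With the replicate block 4 clock genes were lower.

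Genes that FOXO factors and starvation induce were more often lower, with a median difference of -0.24. Of 25 tested, 7 fell (28%, against 5.34% of all genes) and 2 rose (8%, against 4.47%). Sesn1, a sestrin that restrains the growth kinase mTORC1, read 10.53, 10.72 and 10.43 without serum and 8.52, 8.22 and 8.75 in mouse serum, a 4.17-fold fall (-2.06 ± 0.31, adjusted p = 4.81e-05). Pik3ip1, an inhibitor of PI3 kinase, read 6.78, 7.12 and 6.35 without serum and 5.58, 5.62 and 5.57 in mouse serum (-1.16 ± 0.20, adjusted p = 1.88e-04), and Ccng2 and Cited2 fell by 0.61 and 0.39. Against that direction, Trib1 and Arrdc3 rose by 1.68 ± 0.36 and 1.24 ± 0.28. The count of 7 became 4 without the no-serum array of experiment H or without the mouse serum array of experiment I.

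The integrated stress response, which cells raise when amino acids run short, had calls in both directions: 2 of its 27 genes rose (7.41%, against 4.47% of all genes) and 4 fell (14.8%, against 5.34%), with a median of -0.25. The 2 that rose were Slc7a11, also in the NRF2 list, and Ddit4, also in the glucocorticoid list. The call of Ddit4 was lost under 8 of 15 alternatives. Ddit3, the factor CHOP, read 12.53, 12.63 and 12.61 without serum and 11.67, 11.67 and 11.71 in mouse serum (-0.91 ± 0.11, adjusted p = 3.71e-06), and Nupr1 and the seryl-tRNA synthetase Sars fell by 0.61 and 0.43. Aars also fell, a call lost under 7 of 15 alternatives. Its master factor Atf4 differed by -0.02 ± 0.15 and its target Asns by -0.14 ± 0.13. Without any one of the mouse serum arrays, without the no-serum array of experiment H or I, or with the replicate block, 1 gene of the list was higher in place of 2.

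Genes of lipid uptake and sugar transport held single large increases. Olr1, the scavenger receptor LOX-1 for oxidised low density lipoprotein, read 4.37, 4.66 and 4.52 without serum and 7.49, 7.21 and 7.14 in mouse serum; it crossed the filter level, with a difference of 2.77 ± 0.28 (adjusted p = 1.85e-07). Hilpda, a lipid droplet protein that inhibits triglyceride breakdown, read 8.68, 8.85 and 8.79 without serum and 10.68, 10.99 and 10.83 in mouse serum, a 4.17-fold rise (2.06 ± 0.14, adjusted p = 7.89e-10). Abcg1, a cholesterol exporter, fell from 11.86, 11.68 and 11.72 to 11.16, 11.17 and 11.18 (-0.58 ± 0.08, adjusted p = 2.46e-05). Pparg fell by 0.81, and Abca1, another cholesterol exporter, differed by -0.23 ± 0.09 (adjusted p = 0.1069) and was called lower with the mean of its probe sets (-0.43, adjusted p = 0.0008). Of 22 LXR and lipid genes 3 rose and 3 fell (13.6% each, against 4.47% higher and 5.34% lower among all genes). With the replicate block 4 were higher and 5 lower. No cholesterol synthesis gene passed the threshold of limma's test among 19 tested (median 0.01); 2 were higher and 1 lower at an unadjusted p under 0.05, and Hmgcs1 was called lower in the fit on the 12 arrays without LPS (-0.22, adjusted p = 0.0260).

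Slc2a1, the glucose transporter GLUT1, read 10.93, 10.66 and 11.19 without serum and 12.36, 12.54 and 12.55 in mouse serum, a 2.94-fold rise (1.56 ± 0.12, adjusted p = 5.22e-09). Hk2, the hexokinase that traps glucose, rose by 0.55 ± 0.11. Among 21 glycolysis and HIF1 genes these and Slc16a3 (adjusted p = 0.0534 without the no-serum array of experiment I) rose and 2 fell, Ndrg1 by 0.81 (adjusted p = 2.88e-06) and Pfkp by 0.21, a call lost under 11 alternatives. The shares of the list were 14.3% higher and 9.52% lower, against 4.47% and 5.34% of all genes. With the replicate block 4 fell. Ldha differed by 0.09 ± 0.05.

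Receptors that sense microbes moved apart. Trem1, which amplifies inflammatory signalling, read 3.08, 3.53 and 3.58 without serum and 5.95, 6.69 and 5.82 in mouse serum, from below the filter level (2.75 ± 0.21, adjusted p = 3.70e-09). Cd14, the co-receptor that hands LPS to Tlr4, read 11.34, 11.35 and 11.60 without serum and 12.56, 12.73 and 12.55 in mouse serum, a 2.27-fold rise (1.18 ± 0.08, adjusted p = 2.06e-10). Tlr4 itself fell from 11.48, 11.47 and 11.42 to 11.02, 11.17 and 11.05 (-0.38 ± 0.07, adjusted p = 8.91e-04). Tlr1, a partner of Tlr2 in sensing lipoproteins, read 7.70, 7.83 and 7.62 without serum and 5.48, 5.89 and 5.71 in mouse serum, a 4.06-fold fall (-2.02 ± 0.17, adjusted p = 1.24e-08). Tlr2 differed by 0.17 ± 0.12 (adjusted p = 0.4916). Of 21 genes of this list 2 rose (9.52%, against 4.47% of all genes) and 5 fell (23.8%, against 5.34%). The 5 became 3 without the no-serum array of experiment H or the mouse serum array of I, and under 5 other alternatives. Havcr2, which encodes the inhibitory receptor TIM-3, read 8.52, 8.41 and 8.46 without serum and 10.83, 10.89 and 10.58 in mouse serum, a 4.94-fold rise (2.30 ± 0.14, adjusted p = 8.61e-11).

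G protein-coupled receptors and their RGS regulators were called often in both directions, 5 of 27 higher and 8 lower, with a median of -0.08. Gpr35 read 6.36, 5.84 and 6.47 without serum and 8.29, 8.69 and 8.22 in mouse serum, a 4.54-fold rise (2.18 ± 0.21, adjusted p = 1.37e-07). Lpar1, a receptor for the serum lipid lysophosphatidic acid, read 6.39, 5.62 and 5.71 without serum and 7.54, 7.61 and 7.61 in mouse serum (1.68 ± 0.22, adjusted p = 7.91e-06). In the opposite direction, Rgs18, which shortens G protein signals, read 8.68, 8.36 and 8.87 without serum and 7.01, 7.27 and 6.80 in mouse serum (-1.61 ± 0.19, adjusted p = 2.82e-06). Ffar2, a receptor for short-chain fatty acids, Gpr34 and the ADP receptor P2ry1 fell by 1.62, 1.73 and 1.54, and Gpr155 fell by 2.21; all 4 fell to means below the filter level. The count of 5 higher became 3 without the no-serum array of experiment G, or the mouse serum array of H or I.

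Prostaglandin genes included 4 that fell (23.5%, against 5.34% of all genes) and 1 that rose (5.88%, against 4.47%) among 17. The number that rose ran from 0 to 3 over the 15 alternatives. The 1 was Alox5ap, which takes part in leukotriene synthesis (0.22 ± 0.06, adjusted p = 0.0165). Its call was lost with only the 6 arrays compared, with the plain variance model, and without the no-serum array of experiment G or I or the mouse serum array of H. Hpgd, the enzyme that inactivates prostaglandin E2, read 7.0, 6.76 and 6.53 without serum and 4.46, 4.64 and 4.44 in mouse serum (-2.25 ± 0.32, adjusted p = 2.06e-05). Ptger3, a receptor for prostaglandin E2, read 5.33, 5.84 and 5.33 without serum and 3.56, 3.34 and 3.24 in mouse serum (-2.12 ± 0.31, adjusted p = 3.33e-05), both to below the filter level. Hpgds, which makes prostaglandin D2, fell from 10.77, 10.80 and 10.63 to 9.80, 9.78 and 9.73 (-0.97 ± 0.12, adjusted p = 2.36e-06). Ptgs2, the inducible cyclooxygenase, differed by 0.60 ± 0.28 (adjusted p = 0.2322) and was called higher with the mean of its probe sets (0.91, adjusted p = 0.0057). Ptges, the inducible prostaglandin E synthase, differed by 0.81 ± 0.27 (adjusted p = 0.0616). It was called higher with the replicate block (adjusted p = 0.0482), with the stricter filter (adjusted p = 0.0487), with the mean of its probe sets (adjusted p = 0.0139), and without the mouse serum array of experiment G or the no-serum array of I (1.03 in both).

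Genes of small GTPases and their regulators fell in 6 of 17 cases and rose in 3, with a median of -0.24; the 3 became 1 without the mouse serum array of experiment H. Beside Rasgrp3, Rnd3, an atypical small GTPase that loosens actin, read 8.98, 9.0 and 9.08 without serum and 7.34, 7.86 and 7.41 in mouse serum, a 2.80-fold fall (-1.49 ± 0.12, adjusted p = 4.63e-09), and its relative Rnd1 fell by 0.96. Rhob, a small GTPase of endosomes, rose from 10.31, 10.55 and 10.35 to 11.21, 11.22 and 11.28 (0.83 ± 0.09, adjusted p = 4.88e-07).

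Genes that define the macrophage were mixed: of 19 identity and lineage factors, 4 rose and 7 fell. Adgre1, the antigen F4/80, differed by -0.03 ± 0.09, Cd68 by 0.02 ± 0.07 and Lyz2, lysozyme, by -0.03 ± 0.04, none with a call. The chemokine receptor Ccr1 rose by 0.99 ± 0.17 and Ccr2, the receptor of Ccl2, fell by 0.90, from 8.64, 8.73 and 8.19 to 7.69, 7.65 and 7.54 (adjusted p = 6.17e-04). The inhibitory receptor Sirpa, which reads CD47 on other cells, fell from 13.18, 13.21 and 13.05 to 12.39, 12.34 and 12.39 (-0.77 ± 0.06, adjusted p = 1.55e-09). Of the lineage factors Cebpb rose by 0.73 ± 0.11, and Irf8 and Maf fell by 0.63 and 0.50.

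Of 13 genes of alternative activation, the state that interleukin 4 induces, 5 rose and none fell (median 0.29). Arg1, arginase 1, read 5.17, 4.33 and 4.49 without serum and 5.72, 6.21 and 6.0 in mouse serum, from below the filter level (1.31 ± 0.28, adjusted p = 0.0025), Socs2 read 3.07, 3.97 and 3.99 without serum and 5.42, 5.50 and 4.51 in mouse serum (1.47 ± 0.29, adjusted p = 0.0013). Il4ra, the receptor chain for interleukin 4, rose by 0.61 ± 0.14. Tgm2 and Egr2, which belong to other lists as well, made up the rest of the 5. The members Mrc1, Chil3, Ccl17, Ccl22, Ccl24, Clec10a, Irf4 and Klf4 had no call. Chil3 was called higher without the no-serum array of experiment H (1.19, adjusted p = 0.0064). Retnla, Mgl2 and Cd209a were not tested, as they lay below the filter level. The costimulatory receptor Cd40 fell, at 8.95, 9.59 and 9.38 without serum and 8.23, 8.29 and 8.28 in mouse serum (-1.04 ± 0.15, adjusted p = 2.61e-05) and the costimulatory ligand Icosl fell by 0.94. Of 20 antigen presentation genes 5 fell (25%, against 5.34% of all genes) and 1 rose (5%, against 4.47%). The gene that rose was Cd80 (1.18 ± 0.23, and 0.1013 as adjusted p with the mean of its probe sets). The 5 became 3 without the no-serum array of experiment H. In the interferon list, 3 of 27 genes fell (11.1%, against 5.34% of all genes) and none rose (against 4.47%). Irf1 fell by 0.75. The count of 3 became 6 with the replicate block and 8 without the mouse serum array of experiment H.

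The remaining lists are given by their counts. None of 17 Fc receptor and complement genes was called by limma (2 higher and 1 lower at an unadjusted p under 0.05), but C5ar1 and Fcgr1 were called higher with the mean of their probe sets (0.38, adjusted p = 0.0001, and 0.37, adjusted p = 0.0486). Fcgr1 was also called with the replicate block (adjusted p = 0.0481), and without the no-serum array of experiment H (0.0346) or the mouse serum array of I (0.0412). Falls were called for 2 of 24 lysosome and autophagy genes (1 without the no-serum array of experiment G), among them Tfeb, the master regulator of lysosome genes (-0.93 ± 0.22, adjusted p = 0.0053), and 1 of 32 cell cycle genes rose (3.12%) and 3 fell (9.38%). These shares, and the 8.33% of lysosome and autophagy genes that fell, lie near those of all genes, 4.47% higher and 5.34% lower. The cell cycle gene that rose was Ccnd1, cyclin D1 (0.58 ± 0.13, adjusted p = 0.0048); the 3 that fell, Mcm3, Mcm7 and Cdk4, had no call without the mouse serum array of experiment G or H or the no-serum array of experiment H or I. Among 19 apoptosis genes 5 fell (26.3%, against 5.34% of all genes) and 1 rose (5.26%, against 4.47%). Pmaip1, the death protein NOXA, fell from 9.41, 9.29 and 9.35 to 8.06, 8.48 and 7.71 (-1.27 ± 0.26, adjusted p = 0.0017). Casp4 fell by 0.81, and Gadd45g rose by 0.90 ± 0.17. The 5 became 3 without the mouse serum array of experiment H or I or the no-serum array of H. Of 18 genes that hold back Toll-like receptor signalling 5 rose and 2 fell, with Zfp36, which destabilises cytokine mRNA, up by 0.54 ± 0.07 and Nfkbiz down by 0.85; 4 fell with the replicate block, and 2 or 3 were higher without any one array other than the mouse serum array of experiment I.

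**Figure D3:**
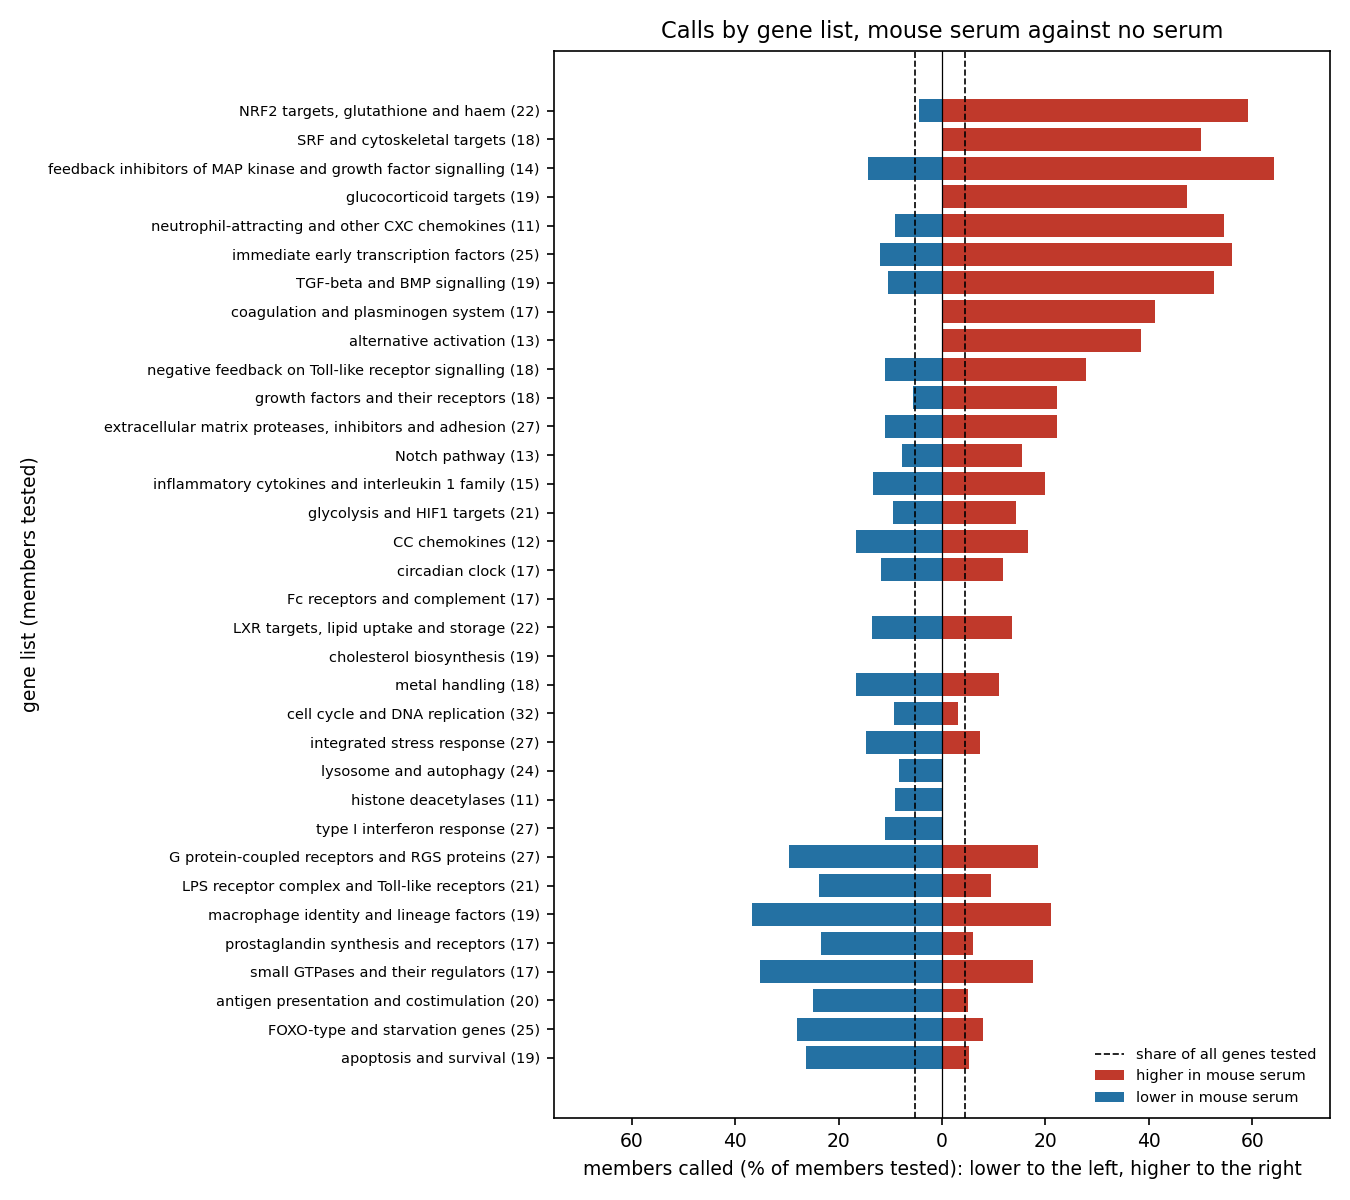
Share of the tested members of each gene list that were called lower (blue, to the left) or higher (red, to the right) in mouse serum, in percent, with the number of members tested in brackets; the dashed lines mark the shares among all genes tested, 5.34% lower and 4.47% higher. The lists of MAP kinase feedback inhibitors, NRF2 targets, immediate early factors, CXC chemokines and TGF-beta genes have over 50% of their members on the higher side. The lists are small, so that 1 gene moves a bar by several percent. The share of TGF-beta genes, 52.6%, counts Tgfbr1, whose call was lost without any one of the 6 arrays.

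Whether the differences belong to mouse serum or to any serum was read from the arrays in fetal calf and human serum without LPS. These comparisons share the 3 mouse serum arrays with the comparison above, so each comparison's own values and counts are given side by side and agreement between them is not read as a result. Mouse serum against calf serum gave 1135 calls (9.63%), with 597 genes higher (5.07%) and 538 lower (4.57%), and mouse against human serum 619 (5.25%), with 302 higher (2.56%) and 317 lower (2.69%); without the mouse serum array of experiment I, 195 were higher than in human serum.

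Pmepa1, highest in mouse serum at 10.69 ± 0.05 (mean ± SD of 3 arrays), read 7.04 ± 0.11 without serum, 7.81 ± 0.32 in calf and 8.60 ± 0.12 in human serum; mouse serum exceeded calf by 2.88 ± 0.13 and human by 2.09 ± 0.13. Cxcl3 read 2.62 ± 0.65 in calf and 5.27 ± 0.59 in human serum, against which mouse serum was higher by 4.36 ± 0.29 and 1.72 ± 0.29. Trem1, at 3.63 ± 0.19 and 3.87 ± 0.19, stood below the filter level in both other sera. Spsb1, an adaptor of a ubiquitin ligase, Lrp8, a receptor for apolipoprotein E and reelin, and the transcript AI504432 were likewise above both: for Lrp8 the differences were 1.76 ± 0.21 against calf and 2.05 ± 0.21 against human serum, for Spsb1 2.75 ± 0.28 and 2.02 ± 0.28, and for AI504432 2.22 ± 0.22 and 2.06 ± 0.22.

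Ccl3 and Hdac9 were lowest in mouse serum. Ccl3 read 9.64 ± 0.12 without serum, 9.87 ± 0.21 in calf, 9.52 ± 0.51 in human and 7.48 ± 0.44 in mouse serum, so that mouse serum was lower by 2.39 than calf and by 2.04 than human serum (2.22e-09 and 1.68e-07 as adjusted p). The other 3 media lay close together. Hdac9 read 8.37 ± 0.01 in calf and 7.53 ± 0.16 in human serum (-2.62 and -1.78). Ccl4, Fgd4, Rasgef1b and Calhm6 also lay below both other sera, by 2.09 and 1.35, 2.0 and 1.20, 1.51 and 1.14, and 1.99 and 1.13.

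**Figure D4:**
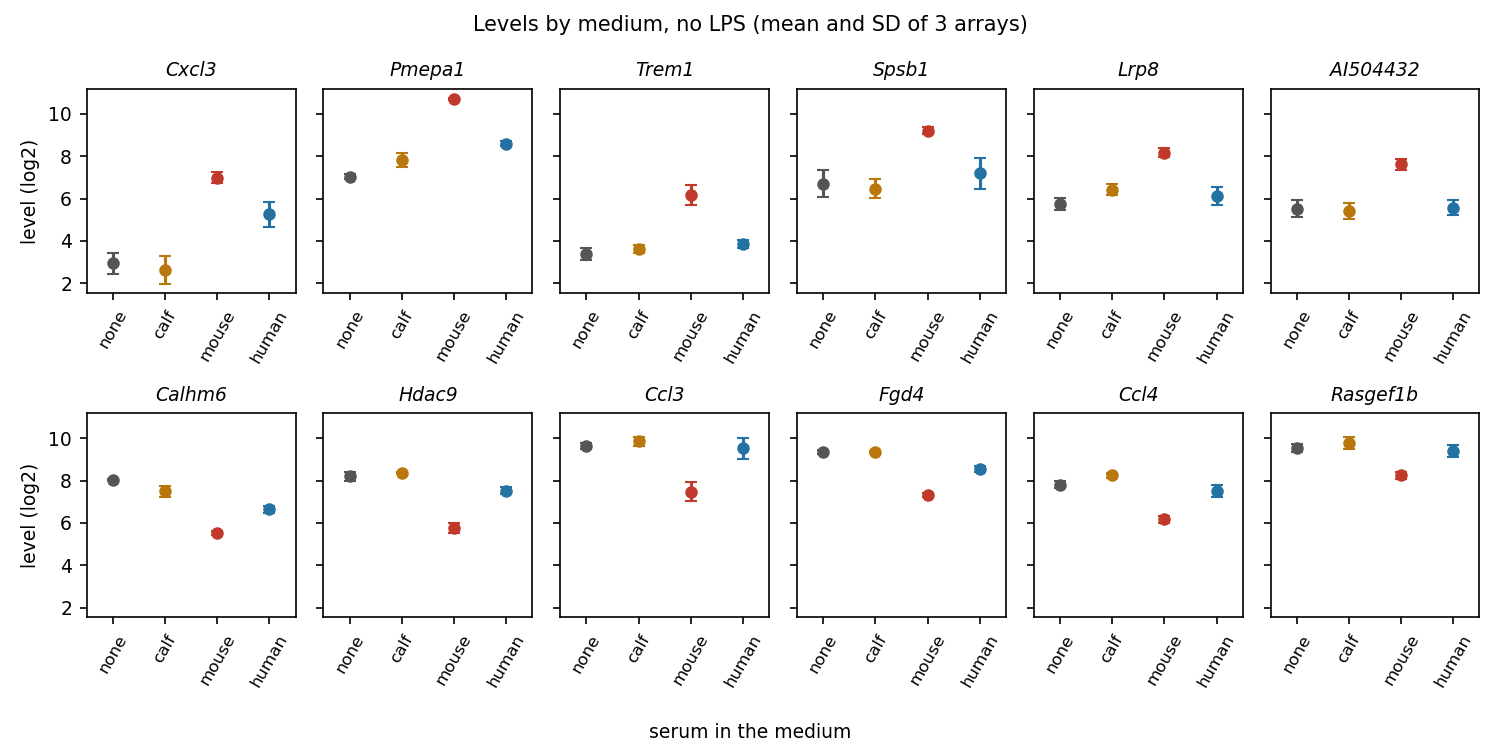
Level (log2, mean of 3 arrays with SD as the error bar) of 12 genes in the 4 media without LPS; the upper row holds the 6 genes that stood highest above both other sera and the lower row the 6 that stood lowest below both. The red point for mouse serum lies apart from the other 3 media in every panel. The mean in human serum lies between those of no serum and mouse serum in every panel. It lies close to no serum for AI504432 (5.57 against 5.53) and Ccl3 (9.52 against 9.64).

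Other large changes separated mouse from calf serum, with no call against human serum. For Thbs1 mouse serum exceeded calf by 3.04 ± 0.16 (adjusted p = 6.71e-12) and differed from human by 0.14 ± 0.16 (adjusted p = 0.7860). The same held for Dusp5 (2.29 ± 0.12 and -0.15 ± 0.12), Met (2.41 ± 0.14 and 0.23 ± 0.14), Hilpda (2.46 ± 0.14 and 0.05 ± 0.14) and Gpr35 (2.12 ± 0.21 and -0.18 ± 0.21), and among decreases for Sesn1 (-2.47 ± 0.31 and 0.21 ± 0.31), Npas2 (-1.73 ± 0.34 and 0.04 ± 0.34) and Rasgrp3 (-3.08 ± 0.32 and -0.35 ± 0.32). A difference from human serum that missed the threshold does not show equal levels. Cxcl10, lower than without serum, differed by 0.01 ± 0.22 from calf and by -0.45 ± 0.22 from human serum, without a call in either. Id3 was higher than without serum but lower than in calf and human serum, by 0.94 and 0.82.

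Among the 22 NRF2 targets, 14 were higher and 1 lower than in calf serum, where 5.07% of all genes were higher and 4.57% lower. Against human serum 14 were higher and 0 lower, where 2.56% of all genes were higher and 2.69% lower. Gclm exceeded calf by 1.03 ± 0.10 and human by 1.19 ± 0.10, Gclc by 1.51 ± 0.13 and 1.31 ± 0.13, and Hmox1 by 0.62 ± 0.10 and 1.03 ± 0.10. Glucocorticoid targets were higher than in calf serum in 12 of 19 cases and than in human serum in 5, with Fkbp5 at 1.63 ± 0.18 and 1.32 ± 0.18. Immediate early factors differed from calf serum in 14 of 25 cases (12 higher, 2 lower) and from human serum in 3 (1 higher, 2 lower). Of 27 integrated stress response genes, 16 were higher and 0 lower than in calf serum, and 0 were higher and 16 lower than in human serum. Ddit3 stood 0.39 ± 0.11 above calf and 0.92 below human serum, and Asns 1.12 ± 0.13 above and 0.57 below.

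The serum difference was also read in macrophages given 25 ng/ml LPS for the 4 h, on arrays that share none with the comparison above. There 1579 genes were called (13.4%), with 804 higher (6.82%) and 775 lower (6.58%). Of the 527 genes higher without LPS, 197 (37.4%) were also higher with LPS and 37 (7.02%) were lower; of the 629 lower genes, 197 (31.3%) were also lower and 22 (3.5%) were higher. The 197 are 24.5% of the 804 genes higher and 25.4% of the 775 genes lower with LPS. The sign of the difference was kept by 394 (74.8%) of the higher and 477 (75.8%) of the lower genes, called or not, against 57.5% of all genes tested.

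Pmepa1 kept a rise with LPS, of 1.58 ± 0.13 (adjusted p = 6.07e-09), as did Olr1 (1.52 ± 0.28), Nr4a1 (2.03 ± 0.30), Havcr2 (1.46 ± 0.14), Hilpda (1.48 ± 0.14), Thbs1 (0.87 ± 0.16) and Dusp5 (1.25 ± 0.12). Among the decreases Rasgrp3 (-1.37 ± 0.32) and Tlr1 (-1.03 ± 0.17) were lower with LPS too. Of the NRF2 list, Srxn1 (0.88 ± 0.09), Txnrd1 (0.56 ± 0.07) and Gclm (0.50 ± 0.10) were higher with LPS, while Slc7a11 (0.00 ± 0.18) and Gclc (0.23 ± 0.13) had no call.

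The difference of the serum effects with and without LPS, tested as an interaction, passed the threshold for 761 genes (6.46%), more positive with LPS for 401 (3.4%) and more negative for 360 (3.05%). Jag1 was raised by mouse serum without LPS and lowered by it with LPS (-0.70 ± 0.11, adjusted p = 1.14e-04), an interaction of -3.51 ± 0.16 (adjusted p = 1.29e-12). Cxcl1 and Cxcl2 turned likewise, with -1.02 ± 0.15 and -0.97 ± 0.11 in the presence of LPS and interactions of -2.49 ± 0.21 and -2.12 ± 0.15. Tnf, which had no call in resting cells, was lower with LPS by 1.74 (adjusted p = 4.36e-12; interaction -1.90 ± 0.13, adjusted p = 7.73e-10).

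**Figure D5:**
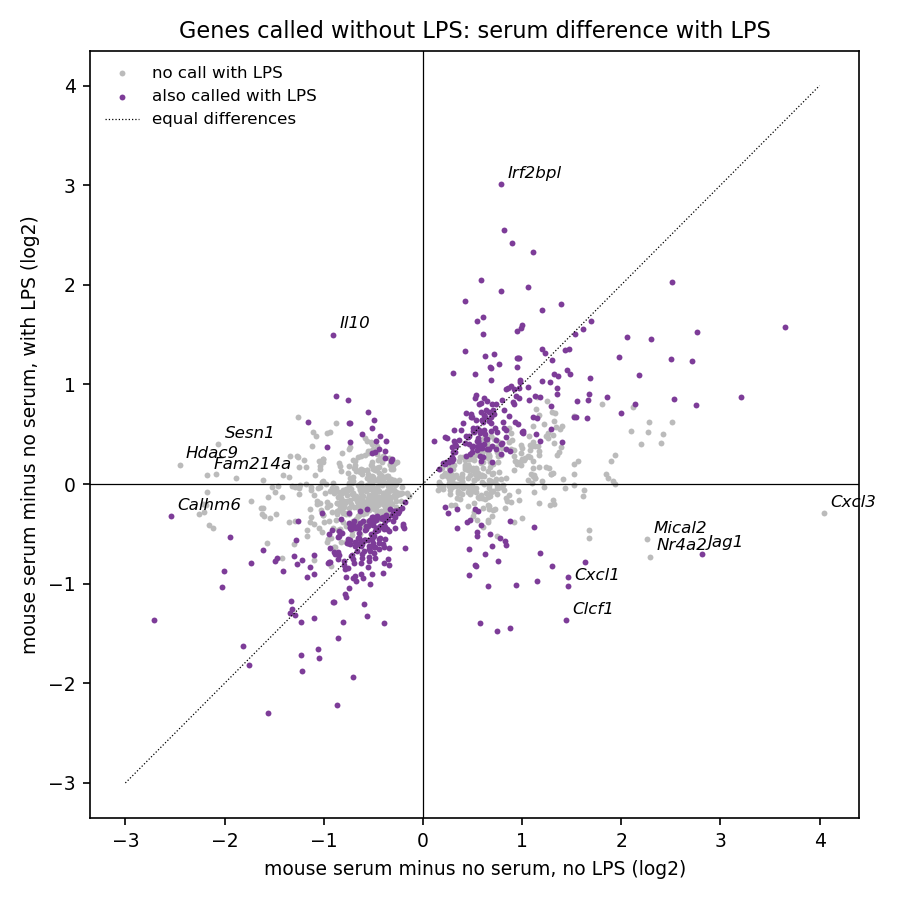
Mouse serum minus no serum with LPS (log2, vertical axis) against the same difference without LPS (log2, horizontal axis) for the 1156 genes called without LPS; purple points were also called with LPS and grey points were not, and points on the dotted line differ equally in both. The 12 genes named in the plot have the largest interactions in each direction: Cxcl3, Jag1, Nr4a2, Clcf1, Mical2 and Cxcl1 lie below the line, and Hdac9, Sesn1, Il10, Fam214a, Irf2bpl and Calhm6 above it.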

How the data were processed

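The deposited table holds 1 log2 value per probe set and array, made by the authors with GCRMA, a background correction and summary of Affymetrix probes, and Partek, per the submitters' processing notes; versions and settings are not given in the sources used here. The log base was inferred from the range of the values, 1.478 to 14.842. GCRMA pulls dim probes together, so differences from levels below the filter depend on that correction, and a fold is given only where both means lie above it.

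Probe sets were named through the platform's annotation: of 45101 probe sets, 34945 name 1 gene, 932 several and 9160 none. A probe set was kept if 3 or more of the 24 arrays read above 5.08, the table's median, and of the probe sets of a gene the one with the highest mean was used. Called genes had 1198 other kept probe sets, of which 508 were called the same way, 1 the opposite way and 689 not. Differences were tested with limma 3.58.1 (R 4.3.3; trend and robust), 1 mean per group over all 24 arrays in 8 groups, and p-values adjusted by Benjamini-Hochberg over 11785 genes. Plots were drawn with matplotlib 3.10.9 and tables made with pandas 2.3.3 under Python 3.11.15 (numpy 2.4.6), and the fit was tested on simulated data. With 3 arrays per group, the number of arrays limits the precision. The labels name G, H and I as experiments, and the 6 array names carry 1 date per letter. Pairing by letter rests on these labels. In the groups compared, deviations from the group means correlated at 0.139, -0.046 and 0.069 between arrays of one letter. Between arrays of different letters they correlated at -0.176 to 0.119. With the letter as a replicate block over all 24 arrays, 1393 genes were called in place of 1156. The main fit leaves the letter out.

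The genes named are the 15 largest increases and decreases with one sign in all 3 experiments, members of gene lists, and the 6 genes in each direction that stood furthest from both other sera or had the largest interaction with LPS. The comparison, the lists and the promoters printed were chosen with earlier results of these data known, and within lists some genes were added after their values were seen. The alternatives were the experiment as a replicate block, fits on 6 or 12 arrays, quantile normalization, median centring, no filter and one at the 60th percentile, the mean of probe sets, a plain variance model, and leaving out each array.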

Additional observations from a re-analysis of the deposited data

Results flagged for a closer look

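For 12 genes called in resting cells the effect of mouse serum differed between cells with and without LPS, by limma's test of the difference itself; they are the 6 with the largest difference in each direction. Means are given as log2 level ± SD of 3 arrays. Cxcl3 went from 2.94 ± 0.48 without serum to 6.99 ± 0.27 in mouse serum without LPS and from 11.08 ± 0.16 to 10.79 ± 0.23 with LPS, a difference of effects of -4.339. Jag1 went from 8.88 ± 0.16 to 11.69 ± 0.15 without LPS and from 11.34 ± 0.07 to 10.64 ± 0.21 with it (-3.510). Nr4a2 went from 6.44 ± 0.40 to 8.73 ± 0.50 and, with LPS, from 7.62 ± 0.34 to 6.89 ± 0.36 (-3.017).

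Clcf1, a cytokine of the interleukin 6 family, went from 6.57 ± 0.29 to 8.01 ± 0.27 without LPS and from 10.65 ± 0.21 to 9.28 ± 0.14 with it (-2.814). Mical2, an enzyme that oxidises actin, went from 6.21 ± 0.32 to 8.47 ± 0.24 and from 5.96 ± 0.79 to 5.41 ± 0.48 (-2.812). Cxcl1, whose probe set carries the suffix for possible cross-hybridisation, went from 9.14 ± 0.41 to 10.61 ± 0.20 and from 13.94 ± 0.04 to 12.92 ± 0.15 (-2.490).

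In the other direction, Hdac9 fell from 8.20 ± 0.20 to 5.75 ± 0.24 without LPS and read 7.87 ± 0.42 and 8.07 ± 0.12 with it, a difference of effects of 2.650. Sesn1 fell from 10.56 ± 0.15 to 8.50 ± 0.26 and read 5.36 ± 0.50 and 5.76 ± 0.58 with LPS (2.462). Il10 read 3.94 ± 0.07 and 3.03 ± 0.43 without LPS, both below the filter level, and went from 7.20 ± 0.39 to 8.70 ± 0.18 with it (2.407). Fam214a read 8.84 ± 0.08 and 6.67 ± 0.49, then 4.35 ± 0.18 and 4.44 ± 0.45 with LPS, the latter both below the filter level (2.260). Irf2bpl, a nuclear factor, went from 8.93 ± 0.24 to 9.72 ± 0.21 and from 6.51 ± 0.12 to 9.52 ± 0.33 (2.226). The probe set of Irf2bpl carries the suffix for possible cross-hybridisation, and its 2 other kept probe sets had no call without LPS. Calhm6 fell from 8.05 ± 0.03 to 5.51 ± 0.09 and read 13.01 ± 0.04 and 12.69 ± 0.08 with LPS (2.216). No sample was tested for standing apart, since each group has 3 arrays.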

How the results depend on the processing

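With the experiment letter as a replicate block, 1393 genes were called in place of 1156 (618 higher, 775 lower), and 1153 of the 1156 kept their call. The other alternatives that kept all arrays of the comparison gave 1052 to 1263 calls. Leaving out 1 array gave 855 to 1028, lowest without the no-serum array of experiment H. Leaving out 1 array gave 877 to 928 calls against calf serum, 414 to 530 against human serum, 1225 to 1302 with LPS and 574 to 691 for the difference between the effects; with the replicate block these were 1346, 776, 1829 and 926. Of 567 values of the 38 genes named by rule under alternatives, 566 kept direction and side of the threshold and 1, that of Il10, lost its call. Of 222 named or listed genes called, 162 were called under every alternative run, 60 lost the call under at least 1 and none changed sign. The replicate block ended 1 of the 222 calls, that of Ddit4, and added 29 among the 432 uncalled genes, of which those named are given with their values. The letters may stand for cultures of one batch of cells, which the labels do not settle, and levels near the filter level have the least signal over background.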
